A study of Homo sapiens with 6 samples.

Results

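The baseline expression profile of MDA-MB-231 control cells was read from the 2 arrays labelled Control, out of 6 expression arrays in the series. MDA-MB-231 is an established human line from a breast carcinoma that the labels call basal-like, and it is widely used as a model of invasive breast cancer without hormone receptors. The control cells were set beside lines in which DICER1 (DICER1-sh) or DROSHA (DROSHA-sh), both enzymes of microRNA maturation, was stably knocked down by a small hairpin RNA, with 2 arrays each, and those lines enter here only where the arrays themselves are checked. What hairpin, if any, the control cells carried is stated only as "control". All cells were untreated and grown in MEM with serum and penicillin, and total RNA was labelled with biotin for Illumina bead arrays. The labels number the arrays of a group 1 and 2 without saying that they came from separate cultures, so the spread between them may be technical.

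Each probe was ranked by its mean deposited signal (AVG_Signal, the unscaled brightness of its beads) over both control arrays and classed by its detection p-value, which places that brightness among the array's negative control probes. A probe counted as detected below 0.05 on both arrays, and a gene counted as detected where at least 1 of its probes was. Of 47319 probes, 18309 were detected on both control arrays (38.7%), 4285 on 1 of them and 24725 on neither. The 30112 probes with 1 gene name stood for 20045 genes, of which 10720 were detected on both arrays (53.5%), 1522 on 1 and 7803 on neither. This 53.5% is the background against which the shares of the gene families below are to be read. Each value pair below is the signal on control array 1 followed by that on control array 2, for the gene's brightest detected probe. Brightness also depends on the probe itself, so an order of signals is not an order of mRNA amounts. Of 6691 genes with several probes, 2184 were detected on both arrays by some of their probes but not by all. A gene called undetected may therefore have a transcript that its probes did not read.

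Among 1287 genes measured in 36 families of receptors, proteases, cytokines, adhesion molecules, lineage factors and enzymes, 560 were detected on both control arrays (43.5%), 111 on 1 and 616 on neither. The profile is that of a cell with very bright VIM, CAV1, CD44, AXL, ITGB1 and F2R. It had 5 of 7 measured simple epithelial keratins, MMP1 as its bright matrix metalloprotease and CXCL8 as its bright chemokine. ESR1, PGR, GATA3, FOXA1, CDH1, KRT5 and KRT14 were at background on both arrays. Olfactory receptors, which sensory neurons of the nose use, served as a family with little reason to be transcribed here. Only 10 of their 371 measured genes were detected on both control arrays (2.7%), the brightest at a mean signal of 250.8, so a detected gene at or below that level lies within the range of these receptors.

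The control arrays differed from each other by more than the other replicate pairs did. The median signal was 167 on control 1 and 150.3 on control 2, with 21026 and 19877 probes detected, and the lowest signal called detected was 177 and 164. After background correction and quantile normalization with neqc, 3549 of the 18309 probes detected on both control arrays differed at least 2-fold between them (19.4%), against 1820 of 18047 between the DICER1-sh arrays (10.1%) and 33 of 18481 between the DROSHA-sh arrays (0.18%). Over 16563 probes detected on all 6 arrays, control 2 correlated with the DROSHA-sh arrays at 0.990 and 0.991, but with control 1 at 0.940. Control 1 correlated best with array 2 of DICER1-sh, at 0.977. Each targeted gene was lower in its own knockdown line than on the control arrays. The brightest DROSHA probe read 651 and 629 in DROSHA-sh cells, against 3735 and 1781 on the control arrays. The brightest DICER1 probe read 404 and 525 in DICER1-sh cells, against 1947 and 685 on the control arrays. A second DICER1 probe read 227 and 359, against 1130.5 and 491, and its other probes were undetected on all 6 arrays. For both detected DICER1 probes, control 2 lay closer to array 2 of DICER1-sh than to control 1. For these reasons each signal is given for both control arrays, and a gene seen on 1 array alone is named as such. Counted on control 2 alone, 11297 genes were detected, and on control 1 alone 11691. In RNA from a whole culture, fewer cells with a transcript and less of it per cell cannot be told apart.

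**Figure D1:**
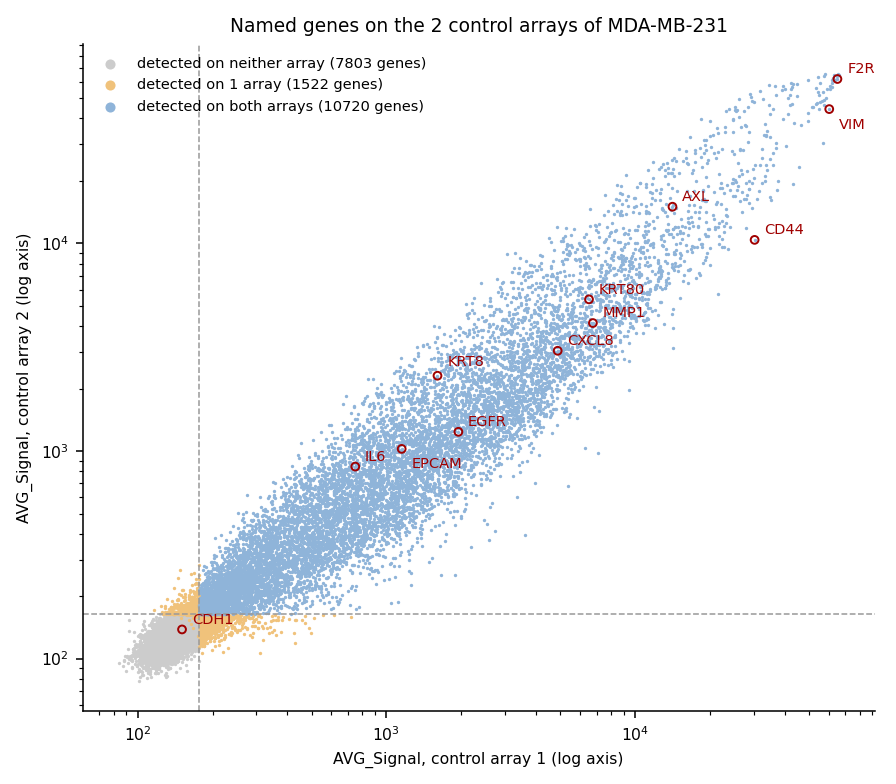
Signal of each of 20045 named genes on control array 1 (horizontal, log axis) against control array 2 (vertical, log axis), coloured by the number of control arrays on which the gene was detected. Dashed lines mark the lowest detected signal on each array, 177 and 164, red circles mark genes named in the text, and CDH1 lies below both lines while F2R and VIM lie at the top right.

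Epithelial cells of the breast fall into a luminal and a basal layer. Luminal cells carry hormone receptors, GATA3 and FOXA1 with the simple keratins, while basal cells carry KRT5, KRT14 and EGFR. In an epithelial-mesenchymal transition, cells lose CDH1, the cadherin of epithelial junctions, gain VIM and matrix-degrading enzymes, and become motile. The inflammatory factors NF-kB and AP-1 drive cytokine genes such as CXCL8 and IL6, and secretion of both cytokines is a known trait of this line.

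All 3 genes taken as markers of these cells were detected on both arrays by every probe they have. VIM, the intermediate filament of mesenchymal cells, read 60319.7 and 44396. MMP1, the interstitial collagenase that cuts fibrillar collagen, read 6765 and 4136. CXCL8, the chemokine that draws neutrophils, read 4883 and 3040.3. Control 1 was the higher array for all 3 genes.

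Promoters are shown for VIM and CXCL8, for CXCL1 and IL6 as further detected cytokine genes, and for KRT8 and KRT5 as a detected and an undetected keratin of the same chromosome. Each is the 250 bases before the gene's start in RefSeq (GRCh38.p14), read along the gene's strand. Promoters of any other start of the same gene were not read. Letters searched on both strands were TGAGTCA or TGACTCA for AP-1, GGGACTTTC, GGAATTTCC or GGATTTTCC for NF-kB, TATAAA for the TATA box, GGGCGG for the GC box and CAGGTG for the E-box read by the SNAI and ZEB repressors. Of these letter groups no pair overlapped in the promoters printed. Capitals mark matches to AP-1, NF-kB, TATA box and GC box letters.
VIM (chr10:17227991-17228240, plus strand): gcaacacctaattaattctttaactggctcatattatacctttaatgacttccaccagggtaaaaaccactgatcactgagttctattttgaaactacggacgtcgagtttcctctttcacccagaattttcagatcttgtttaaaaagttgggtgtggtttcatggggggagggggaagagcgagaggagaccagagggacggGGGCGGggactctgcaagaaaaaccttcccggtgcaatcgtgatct
CXCL8 (chr4:73740319-73740568, plus strand): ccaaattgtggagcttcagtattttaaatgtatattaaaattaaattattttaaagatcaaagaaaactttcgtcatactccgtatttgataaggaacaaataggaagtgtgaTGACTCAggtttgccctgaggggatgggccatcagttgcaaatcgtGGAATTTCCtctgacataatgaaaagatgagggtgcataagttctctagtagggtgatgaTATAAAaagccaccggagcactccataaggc
CXCL1 (chr4:73869143-73869392, plus strand): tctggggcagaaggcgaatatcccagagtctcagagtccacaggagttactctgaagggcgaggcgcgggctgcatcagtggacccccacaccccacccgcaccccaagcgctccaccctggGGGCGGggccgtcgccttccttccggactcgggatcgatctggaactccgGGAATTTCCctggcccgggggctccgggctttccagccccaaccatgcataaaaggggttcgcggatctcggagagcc
IL6 (chr7:22726950-22727199, plus strand): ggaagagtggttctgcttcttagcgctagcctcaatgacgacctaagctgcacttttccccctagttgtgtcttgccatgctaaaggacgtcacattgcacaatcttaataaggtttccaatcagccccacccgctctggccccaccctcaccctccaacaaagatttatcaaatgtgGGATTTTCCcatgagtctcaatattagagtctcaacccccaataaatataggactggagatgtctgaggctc
KRT8 (chr12:52926470-52926719, minus strand): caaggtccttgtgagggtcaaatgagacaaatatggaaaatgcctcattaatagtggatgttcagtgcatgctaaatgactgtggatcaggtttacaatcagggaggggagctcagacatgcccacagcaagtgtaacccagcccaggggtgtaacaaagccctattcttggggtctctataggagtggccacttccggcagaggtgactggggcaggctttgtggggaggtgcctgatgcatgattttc
KRT5 (chr12:52520395-52520644, minus strand): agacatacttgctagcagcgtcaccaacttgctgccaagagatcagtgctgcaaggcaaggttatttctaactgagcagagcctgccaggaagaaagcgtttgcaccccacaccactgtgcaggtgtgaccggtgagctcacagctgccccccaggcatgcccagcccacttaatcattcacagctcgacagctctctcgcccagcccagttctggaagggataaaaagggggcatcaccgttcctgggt
CXCL8 holds TGACTCA from 137 bases before its start, GGAATTTCC from 91 and TATAAA from 31. CXCL1 holds GGGCGG from 128 bases before its start and GGAATTTCC from 78, and IL6 holds GGATTTTCC from 72. These NF-kB letters were picked as those known from such cytokine genes, so their presence there was built into the choice. VIM holds GGGCGG from 46 bases before its start. KRT8 holds none of the letters searched, and KRT5 holds CAGGTG alone, from 130 bases before its start. Over 27305 promoters, AP-1 letters occurred in 4.2%, NF-kB letters in 1.0%, TATAAA in 11.1%, CAGGTG in 17.5% and GGGCGG in 42.3%. A match of letters is no evidence of a bound factor.

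Promoter composition differed between detected and undetected genes. Over 15034 named genes with a promoter, the CpG content (observed over expected from the base composition) had a median of 0.83 in the 8684 genes detected on both control arrays and 0.39 in the 5270 detected on neither. GGGCGG was present in 67.4% of detected and 38.2% of undetected genes, and TATAAA in 5.5% and 14.9%. The printed cytokine promoters lie below the median of the detected genes in this measure, with ratios of 0.47 in CXCL8, 0.67 in CXCL1 and 0.3 in IL6. Before the start used here, KRT8 had 0.07 although it was detected, and KRT5 had 0.31. Other starts of these genes may differ.

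The 20 brightest named genes included many of protein synthesis and the cytoskeleton. Among them were the elongation factor EEF1A1, the actin-sequestering TMSB4X, PFN1, the actins ACTB and ACTG1, the tubulin TUBA1B, the mitochondrial ATP synthase subunit ATP5F1B and the ribosomal proteins RPL41, RPS29, RPLP2, RPL6 and RPS16. EEF1A1 read 65782 and 64773, and TMSB4X read 64853 and 64059. F2R, the thrombin receptor PAR1, was the only member of the 36 families among these 20, with 65063 and 61983 and both of its probes detected. CLUAP1, FAM177A1, LAIR1, ITIH5 and the copies ANXA2P2, RPL13AP5 and SLC7A5P2 complete the 20. SLC7A5P2 and ITIH5 rest on 1 bright probe each, and their other probes, 2 for SLC7A5P2 and 4 for ITIH5, stayed at a mean of at most 151. Pseudogene probes can also read the parent transcript. Over all detected genes the median of the mean signal was 799.8, and 463 genes exceeded 10000.

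**Figure D2:**
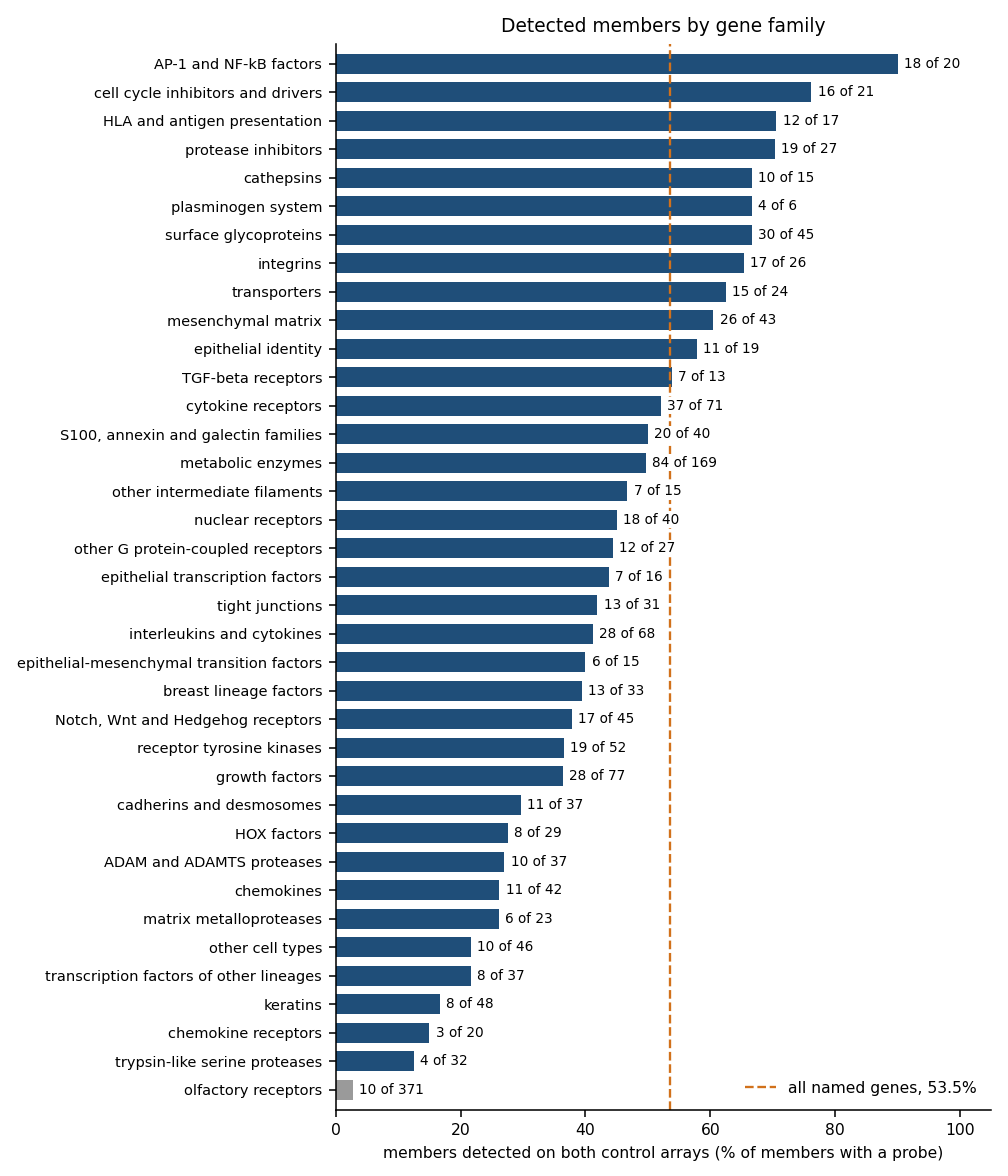
Share of the measured members of each family detected on both control arrays, in percent, with the counts beside each bar. The dashed line marks the 53.5% of all named genes, and the families run from AP-1 and NF-kB factors with 18 of 20 to olfactory receptors with 10 of 371.

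Nuclear receptors are transcription factors switched by hormones and lipids, and 18 of 40 were detected on both arrays. The hormone receptors that define luminal breast tumours were at background: ESR1 read 147 and 135 and PGR 138 and 141, below the detection limits of 177 and 164. The glucocorticoid receptor NR3C1 was detected at 961 and 512 by 1 of its 3 probes, and the mineralocorticoid receptor NR3C2 at 619.8 and 416. PPARG, the fatty acid receptor of adipocytes, was the brightest of the family at 5758 and 3964, by 2 of 4 probes. Of the retinoid partners, RXRB read 3886 and 1861 and RXRA 1349 and 1537. Among 9 detected orphan receptors the clock repressor NR1D2 led at 2296 and 863, ahead of NR2C1 at 1962 and 874 and NR2F6 at 1076 and 849. NR1D2 and NR2C1 were higher on control 1 before and after neqc, while NR2F6 was higher on control 1 by 0.34 on the log2 scale before neqc and at -0.16 after it.

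Receptor tyrosine kinases, which pass growth factor signals across the membrane, were detected for 19 of 52 members. AXL, the receptor for GAS6 that is often raised in mesenchymal tumour cells, was the brightest at 14130.4 and 15034, by both of its probes. MET, the hepatocyte growth factor receptor, read 7467 and 3231, and MERTK, a relative of AXL, read 3119 and 1658. EGFR, a usual basal feature, read 1948 and 1238 by 2 of its 4 probes. ERBB2, whose amplification defines another tumour class, read 1494 and 1113 by 1 of 3 probes, and ERBB3 was dim at 315 and 405. ERBB4 was not detected. EPHA2 led the ephrin receptors at 1229.5 and 1506, ahead of EPHB4 at 614 and 679 and EPHA4 at 422 and 305, and 5 of 13 of these receptors were detected. The Wnt-binding kinases RYK at 5449 and 2383 and ROR1 at 1019.6 and 703 were detected by all 3 of their probes, and PTK7 read 480.0 and 259.8.

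The receptors of stromal and vascular growth factors were mostly undetected. Only FGFR3 at 541 and 327 and CSF1R at 196 and 170.0 of 12 FGF, PDGF, VEGF and related receptors were detected, and CSF1R lies within the olfactory receptor range. FGFR1, FGFR2, PDGFRA, PDGFRB, KDR and KIT were detected on neither array, nor were IGF1R and INSR.

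Receptors of the TGF-beta family, which signal through SMAD factors, were detected for 7 of 13 members. TGFBR2, the ligand-binding type II receptor, was bright at 15225 and 8773 by all 3 of its probes. ACVR1, an activin and BMP receptor, read 4053 and 1599, and the co-receptor TGFBR3 read 3587 and 1279.8. The type I partner TGFBR1 was detected on 1 array alone. Control 1 exceeded control 2 for 6 of the 7 detected members, with a median log2 difference of 0.81 after neqc.

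Cytokine receptors reached 37 of 71, near the background share. CSF2RA, the alpha chain for granulocyte-macrophage colony stimulating factor, read 10063 and 7561 by all 4 probes, while its signalling partner CSF2RB was not detected. IL6ST, the gp130 chain shared by the IL6 family, read 8350.5 and 3004, whereas IL6R, the chain that binds IL6 itself, was not detected, at 137 and 121. OSMR, LIFR and IL4R were also detected, and IL13RA1 read 3644 and 1749. All 5 interferon receptors were detected, with IFNGR2 at 3989.6 and 2931, IFNGR1 at 2250.0 and 1059.7 and IFNAR1 at 748 and 594. Of 28 receptors for tumour necrosis factor ligands 13 were detected: TNFRSF21, a death receptor, led at 10727 and 9085, ahead of TNFRSF12A, the TWEAK receptor, at 3218 and 5525. The TRAIL receptor TNFRSF10B read 4067 and 2769 by all 3 probes. FAS, NGFR and EDAR were not detected.

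Chemokine receptors, which steer leukocytes and some tumour cells along gradients, were detected for only 3 of 20. CXCR4, the receptor for CXCL12, lay near background at 273 and 165 by 1 of its 3 probes, and CCR2 likewise at 201 and 184 by 1 of 10 probes. CCR6 read 54049 and 47385 on 1 probe, but its 2 other probes stayed at a mean of at most 156, so its level rests on that probe alone. CXCR1, a receptor for CXCL8, and ACKR3 were not detected, and CXCR2 was detected on 1 array. Among 27 receptors for thrombin, lysophospholipids, prostaglandins and nucleosides 12 were detected. After F2R, the brightest were LPAR1, the lysophosphatidic acid receptor, at 8413 and 4171 and the adenosine receptor ADORA2B at 5634 and 5927.

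Receptors of the Notch, Wnt and Hedgehog pathways were more often detected than their ligands, with 12 of 18 receptors against 5 of 27 ligands. FZD6 led at 5534 and 2406, ahead of the co-receptor LRP5 at 2765 and 1482 and NOTCH1 at 2640.1 and 1661. The Hedgehog receptors PTCH1 and SMO were not detected. JAG1, a Notch ligand, read 1703 and 1137, WNT5B read 688 and 667 by 1 of 2 probes and WNT3 read 396 and 256.

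Matrix metalloproteases were detected for 6 of 23 members, and MMP1 stood alone above the olfactory receptor range. MMP14, the membrane-type enzyme that activates MMP2, read 255 and 227, and its mean lay below 250.8. MMP3 read 232 and 179 and MMP15 179 and 187. MMP23B at 185 and 188 and MMP21 at 186 and 178 were as dim. The gelatinases MMP2 at 128 and 147 and MMP9 at 127 and 111 were not detected, nor were the collagenase MMP13 at 132 and 120.0 and the matrilysin MMP7 at 116 and 136. At a detection p-value of 0.01 the count fell to 2 of 23.

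The ADAM and ADAMTS enzymes, which shed surface proteins or cut proteoglycans, were detected for 10 of 37. ADAM15 was bright at 14361 and 8921 by all 4 probes. ADAM10, the sheddase of Notch, read 2618 and 538, and ADAM9 read 1887 and 254, which are the strongest disagreements between the arrays among the proteases. Of 18 ADAMTS genes 4 were detected, led by ADAMTS1 at 475 and 302, ADAMTS4 at 274 and 328 and ADAMTS6 at 265 and 171.

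The plasminogen system, which turns plasminogen into plasmin at the cell surface, was well represented, with 4 of 6 measured members detected. PLAU, the urokinase activator, read 7450.1 and 5722, its receptor PLAUR 1348 and 1686 by all 3 probes and PLAT, the tissue-type activator, 2096 and 1757. SERPINE2, an inhibitor of both activators, read 5395 and 3607. PLG itself, a liver product, was not detected. Cathepsins, the proteases of lysosomes, were detected for 10 of 15, with CTSL at 5512 and 4549, CTSB at 3579 and 2600.2, CTSC at 3303 and 2248 and CTSD at 2094 and 2423. Every probe of CTSL, CTSB and CTSC was detected.

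Trypsin-like serine proteases of secretory epithelium were mostly undetected, with 4 of 32 detected. None of the 15 kallikreins was detected on both arrays, 2 of them on 1 array. The transmembrane enzymes ST14, PRSS8, TMPRSS2 and TMPRSS4 were detected on neither. PRSS23 was the exception at 10339 and 4449.5, ahead of HTRA2 at 627 and 649.9 and HTRA1 at 575 and 582. Protease inhibitors were detected for 19 of 27, above the background share. All 4 TIMPs, the inhibitors of metalloproteases, were detected, with TIMP2 at 9950.4 and 10076, TIMP1 at 4594 and 10195 and TIMP3 at 1854 and 1609. The cysteine protease inhibitors CSTB at 5106 and 10305 and CST3 at 4514 and 10659, like TIMP1, were at least 2-fold higher on control 2, while TIMP2 differed by -0.18 on the log2 scale after neqc. SPINT2, an inhibitor of transmembrane serine proteases, read 6203 and 7850.4. SERPINB5, the maspin of normal mammary epithelium, was not detected at 139 and 118.

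**Figure D3:**
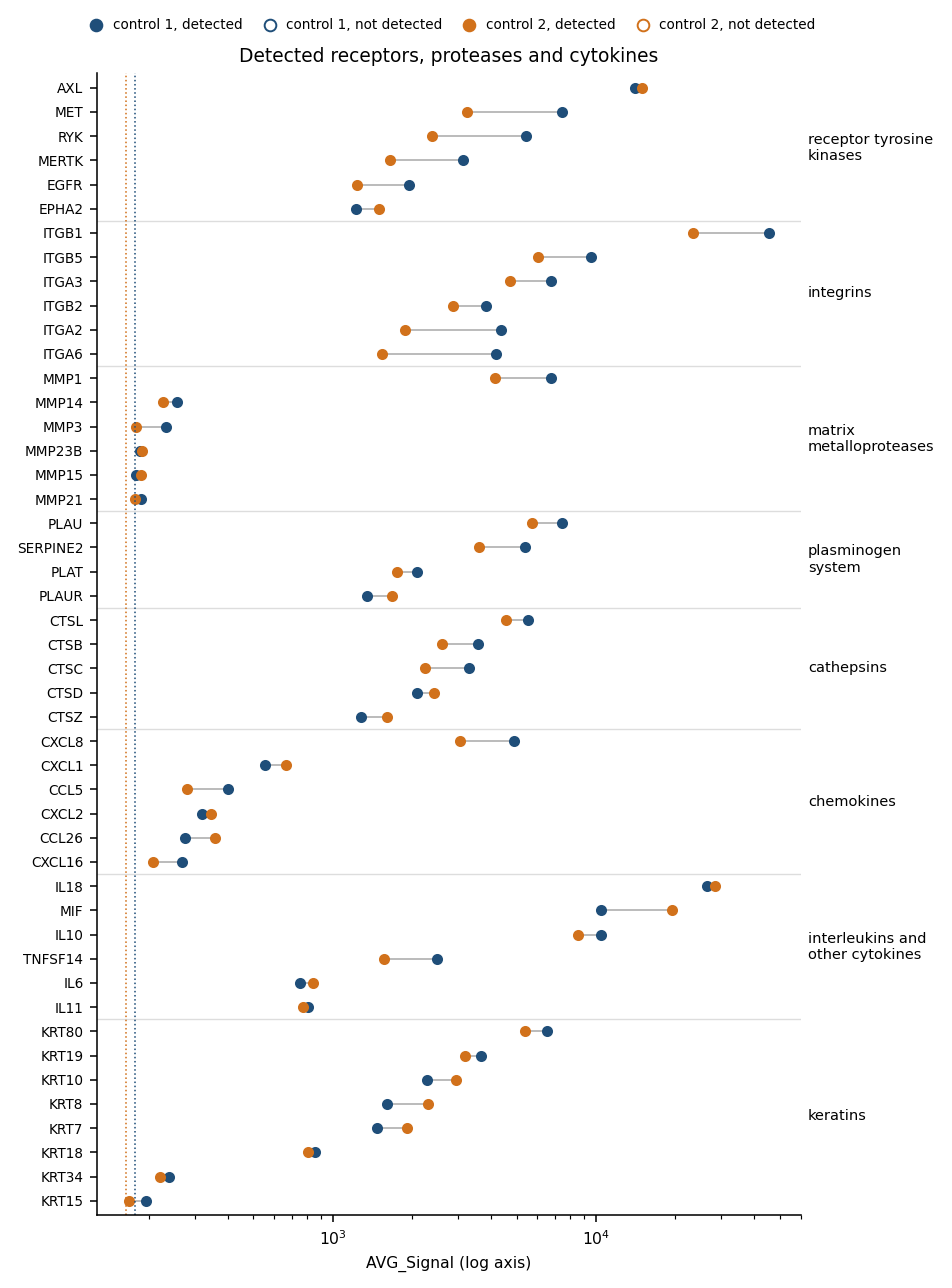
Signals (log axis) of the brightest detected members of 8 families on control array 1 (blue) and control array 2 (orange), with dotted lines at the lowest detected signal of each array. MMP1 reads 6765 and 4136 while the other detected matrix metalloproteases sit beside the dotted lines, and IL10 rests on 1 of its 2 probes.

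Chemokines were detected for 11 of 42, and CXCL8 stood far above the rest. CXCL1, also a ligand of CXCR2, came next at 551 and 667, ahead of CCL5 at 401 and 279 by 1 of 2 probes and CXCL2 at 319.8 and 346. CCL26 read 274 and 358 and CX3CL1 261 and 209. CXCL12, the ligand of CXCR4 made by stroma, was not detected at 160.2 and 143, and neither were CCL2, CXCL3, CXCL5, CXCL6 and CXCL9. Only 5 of the 11 exceeded the olfactory receptor range. Of 8 detected chemokine genes with a promoter in the RefSeq table, 50.0% held the NF-kB letters, against 19.0% of 21 undetected ones and 1.0% of all promoters. Among interleukins and other cytokines the letters were in 4.8% of 21 detected and 6.7% of 30 undetected genes. With so few genes, and letters partly taken from them, these shares are a description only.

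Interleukins and other cytokines were detected for 28 of 68, of which 16 lay above the olfactory receptor range. IL18, a cytokine of the IL1 family stored as a precursor, was the brightest at 26374 and 28381. IL1B read 584 and 589 and IL1A 253 and 168. IL6 read 749.8 and 842 and IL11, a bone-resorbing cytokine tied to bone metastasis of this line, read 805 and 772. After neqc both were higher on control 2, with log2 differences of -0.75 for IL6 and -0.49 for IL11. KITLG read 671 and 296 by 1 of 3 probes. MIF, a widely expressed inflammatory factor, read 10469.7 and 19554, TNFSF14 2482 and 1571 by 1 of 3 probes and TNFSF18 1082 and 247. IL10 read 10504 and 8543 on 1 probe while its other probe was not detected on either array. IL12A read 485 and 452 and IL25 345 and 557. TNF, IFNB1, IFNG, CSF3, IL33 and IL4 were detected on neither array.

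Growth factors were detected for 28 of 77. Among ligands of EGFR, TGFA read 2648 and 1359 and HBEGF 1866 and 1435, while EREG at 258 and 214 and EGF at 248 and 177 had means within the olfactory receptor range. NRG1, the ligand of ERBB3, read 1486 and 669 by 2 of 7 probes. GAS6, the ligand of AXL, read 5102 and 4591 by 3 of 4 probes. VEGFB read 4770.1 and 6224 and VEGFA, the main angiogenic factor, 1481 and 1086. PDGFC read 3825 and 985, far higher on control 1. HGF, the ligand of MET, was not detected. Within the TGF-beta family 10 of 32 were detected, with GDF15 at 1246 and 1787, TGFB2 at 2221 and 686 and INHBB at 487 and 553. TGFB1 was not detected at 123 and 126, although TGFBR2 was bright.

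Keratins, the intermediate filaments of epithelia, were detected for 8 of 48, which is 16.7%. Of 7 measured simple epithelial keratins 5 were detected (71.4%), and all 5 of those lay well above the olfactory receptor range. KRT80 read 6524 and 5379 by both probes, KRT19 3675 and 3189, KRT8 1605 and 2306, KRT7 1471 and 1909.8 and KRT18, the partner of KRT8, 854 and 809. Of 18 basal and stratified keratins 2 were detected, KRT10 at 2286 and 2954 and KRT15 at 195 and 168, the second within the olfactory receptor range. The keratins that define the basal layer, KRT5 at 115 and 105 and KRT14 at 129.6 and 116, were not detected. KRT5 and KRT14, which go with the label basal-like, were thus at background, while KRT17, KRT6A and KRT6B were not measured here. EGFR, also a basal feature, was detected. Of the basal and progenitor genes described below, 6 of 15 were detected (40.0%). That share lies below the 53.5% of all named genes and close to the 38.9% of luminal breast genes. Of 23 hair keratins only KRT34 was detected, at 239 and 219.8, within the olfactory receptor range. Control 2 exceeded control 1 after neqc for 7 of the 8 detected keratins, with a median log2 difference of -0.40, against -0.02 over all detected genes. On the unscaled signals the keratin median was 0.10, against 0.32 over all detected genes.

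Other intermediate filaments were detected for 7 of 15. After VIM, the cytoplasmic members were far dimmer, with SYNM at 816 and 543 by 1 of 2 probes and NEFH at 298 and 235. The nuclear lamins were all detected, with LMNA at 10356 and 9344, LMNB2 at 7571 and 8226 and LMNB1 at 2687 and 1657. DES, GFAP and NEFL, filaments of muscle, glia and neurons, were not detected, although NEFH, also a filament of neurons, was.

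Integrins, the receptors that tie cells to matrix, were detected for 17 of 26. ITGB1, the beta chain shared by most of them, was the brightest at 45452 and 23464 by 2 of its 4 probes. Its collagen- and laminin-binding partners ITGA3 at 6735 and 4706, ITGA2 at 4353 and 1886 and ITGA6 at 4167 and 1543 led the alpha chains. ITGAV read 4127 and 1312 and the fibronectin receptor chain ITGA5 1318 and 803. ITGB5, a partner of ITGAV, read 9556 and 6021. ITGB3, another partner of ITGAV, was not detected at 149 and 130.0, nor were ITGB6 and ITGB8. ITGB4, the laminin receptor chain of basal cells, was dim at 437 and 603. ITGB2, a beta chain of leukocytes, read 3838 and 2870.0 by both probes, whereas its leukocyte partners ITGAL at 103 and 106 and ITGAM at 164 and 146 were not detected. ITGA2, ITGA6 and ITGAV were higher on control 1.

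Classical cadherins were detected for 2 of 19. CDH11, the cadherin of osteoblasts and mesenchyme, read 1708 and 1068. CDH2, the neural cadherin gained in many mesenchymal cells, was barely above the limit at 189 and 178. CDH1 was not detected at 151 and 138, and neither were CDH3, CDH5 and CDH6. The catenin CTNNA1, which links cadherins to actin, was bright all the same at 16698 and 13464 by both probes. DSG2, a desmosomal cadherin, read 6540.3 and 3317, PKP4 6512 and 2836, and DSP, JUP, CTNNB1 and CTNND1 were detected, while DSG1, DSG3, PKP1 and PKP3 of stratified epithelium were not.

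Tight junction genes were detected for 13 of 31. CLDN12 at 5610.0 and 2349, CLDN1 at 3374 and 1404 and CLDN23 at 1453 and 1216 led 10 detected claudins. CLDN3 at 197 and 176 and CLDN4 at 195 and 202 were within the olfactory receptor range, and CLDN7 was slightly above it at 273 and 380.5. OCLN, the transmembrane strand protein, and CGN were not detected, while TJP1 was present at 3026 and 2542 by both probes. PARD6B at 228 and 224 and PARD3 at 247 and 176, polarity adaptors, were dim.

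Genes of epithelial identity gave a mixed picture, with 11 of 19 detected, near the background share. EPCAM, a surface adhesion protein of epithelia, read 1152 and 1024 by all 3 probes. CD24 read 1584 and 849 by 1 of 2 probes, and MAL2, of apical transport, 2246 and 1058. ESRP1, the splicing factor of epithelial isoforms, was not detected at 142 and 150.0, and ESRP2, RAB25 and SPINT1 were not either. Of 15 factors of the epithelial-mesenchymal transition 6 were detected. FOXQ1 was the brightest at 4146 and 2593, ahead of TCF3 at 756 and 870.3 and the chromatin protein HMGA2 at 777 and 705. SNAI2, a repressor of CDH1, read 745 and 409 and ZEB2 519 and 283. ZEB1, the related repressor, was detected on control 1 alone, at 428 and 119. TWIST1 at 159 and 122 and SNAI1 were detected on neither array.

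**Figure D4:**
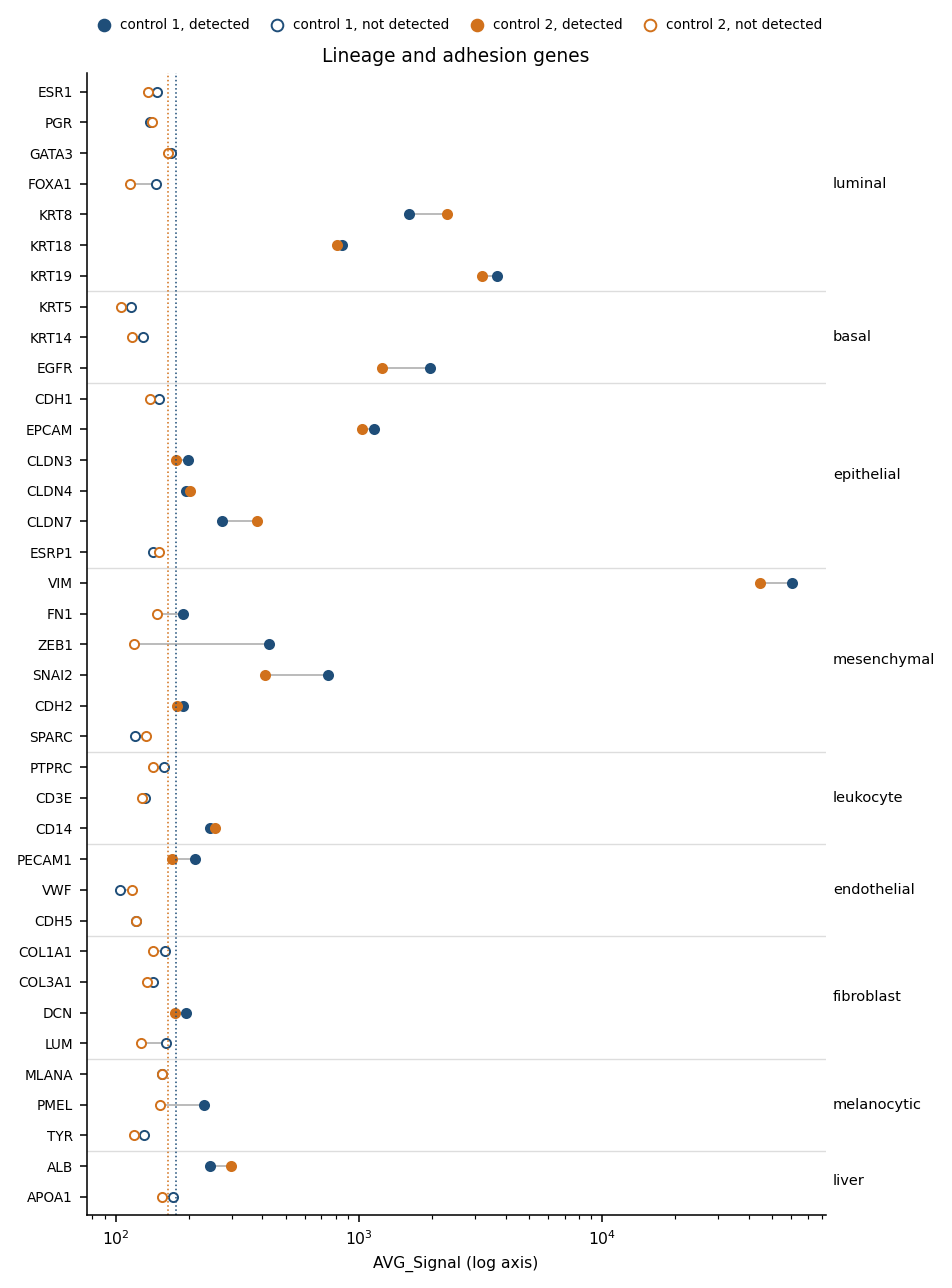
Signals (log axis) of breast lineage, epithelial, mesenchymal and other cell type genes on control array 1 (blue) and control array 2 (orange), filled where detected and open where not, with dotted lines at the lowest detected signal of each array. VIM stands far to the right, KRT8, KRT18, KRT19, EGFR and EPCAM lie in the middle, and ESR1, KRT5, CDH1 and most genes of other cell types lie at the dotted lines.

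Luminal breast genes were detected for 7 of 18 and basal ones for 6 of 15. GATA3 at 168 and 164 and FOXA1 at 146 and 114 were not detected, nor were the oestrogen targets GREB1 and TFF1. On control 2, GATA3 lay close to the detection limit of 164. XBP1, a factor of secretory cells, was nevertheless bright at 5039 and 3123 by both probes, ahead of AGR2 at 936 and 1021 and MYB at 555 and 357. On the basal side SOX9 read 1483 and 1064, the smooth muscle kinase MYLK 875 and 558 and RUNX1 744 and 540.2, while SOX10, KIT, MME and CNN1 were not detected. Epithelial transcription factors were detected for 7 of 16. KLF6 read 7367 and 6347, KLF4 1653 and 1218 and KLF5 1242 and 664. GRHL2, GRHL3, OVOL1 and OVOL2, which hold the epithelial state, were detected on neither array.

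Factors of other lineages were detected for 8 of 37. SOX2, POU5F1, NANOG and LIN28B of pluripotent cells were not detected, nor were MYOD1 of muscle, SPI1 of blood and CDX2 of gut. FOXA2 read 6532 and 7641 on 1 probe while its 2 others were undetected, so it rests on that probe. RUNX2, the osteoblast factor, read 1079 and 466 by 1 of 2 probes and MITF 792 and 659.6 by 1 of 3. NEUROG2 was within the olfactory receptor range at 240.2 and 222. HOX factors were detected for 8 of 29, led by HOXD1 at 915 and 695, HOXC6 at 334 and 389 by 1 of 4 probes and HOXD3 at 293 and 296. Of the 10 measured HOXB genes 2 were detected, HOXB8 and HOXB5, both within the olfactory receptor range. Of 11 listed HOXA genes only HOXA2 was measured, and it was detected on 1 array alone.

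Inflammatory transcription factors had the highest share of any family, with 18 of 20 detected. All 10 NF-kB genes were detected, among them NFKB1 at 10871 and 4609, its inhibitor NFKBIA at 4830.5 and 3678 and NFKBIZ at 1996 and 1084. Of 10 AP-1 genes 8 were detected, with JUND at 9578 and 7926, JUN at 2771 and 2469 and FOSL1, the FRA1 of invasive breast lines, at 1272 and 2559.6. JUNB and BATF were detected on 1 array each. FOSL1 was higher on control 2 and NFKB1 on control 1.

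Matrix genes were detected for 26 of 43. The matricellular proteins CCN2 at 37446 and 19926 and CCN1 at 31796 and 23761, both targets of YAP, led, ahead of the laminin chain LAMC1 at 12660.1 and 7428. Among fibrillar collagens, COL1A1 was not detected at 159 and 142, and neither were COL3A1 and COL5A2. COL1A2 and COL11A1 were detected on 1 array alone, while COL5A1 was detected on both, at 741 and 473. LUM, POSTN and SPARC were not detected. FN1, the fibronectin of mesenchymal cells, was detected on control 1 alone, at 189 and 148. 

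Surface glycoproteins were detected for 30 of 45. The tetraspanin CD81 read 26446 and 28209.9, the caveola coat CAV1 26702 and 22563 by both probes and the transferrin receptor TFRC 31358 and 17899.5. CD44, the hyaluronan receptor used with CD24 to define tumour-initiating cells, read 30227 and 10406, and was higher on control 1 by 1.54 on the log2 scale before and 1.78 after neqc. ICAM1 was dim at 255 and 205. CD274, the checkpoint ligand PD-L1, was detected on control 1 alone, at 212 and 117, and PROM1, THY1, CEACAM5 and L1CAM on neither array.

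The S100, annexin and galectin families were unevenly represented. Of 18 S100 genes 8 were detected: S100A10 at 20500.3 and 33406, S100A6 at 16644 and 32498 and S100A4, the metastasis-associated member, at 3279 and 8979.8, all higher on control 2. S100A7, S100A8, S100A9 and S100B were not detected. Of 12 annexins 9 were detected, with ANXA2, the partner of S100A10, at 39382 and 39814 by all 3 probes, ANXA1 at 17439.8 and 14203 and ANXA5 at 15263 and 13179.8. Galectins were led by LGALS1 at 12665 and 23319, ahead of LGALS8 at 6782 and 2480.0 and LGALS3 at 2292 and 2747.

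Antigen presentation genes were detected for 12 of 17. B2M, the light chain of class I molecules, read 21559 and 27597, the peptide transporter TAP2 3167 and 1931 and HLA-E 2402 and 2674. Class II genes were mixed. HLA-DRA read 511 and 327, CD74, the invariant chain, 288 and 422, HLA-DMA 349 and 370.2 and HLA-DMB, within the olfactory receptor range, 240.2 and 217. HLA-DPA1 was detected on 1 array, and CIITA, the switch of class II genes, HLA-DRB1, HLA-DQB1 and HLA-DPB1 were detected on neither.

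Transporters were detected for 15 of 24. SLC7A5, the large neutral amino acid carrier, read 15168 and 11286, SLC38A1 18267 and 7034 and SLC38A2 10760.0 and 4539. The glucose carrier SLC2A1 read 7825 and 6346 and the insulin-dependent SLC2A4 was not detected. Drug pumps of the ABCC type were detected, with ABCC4 at 1728 and 1066, ABCC3 at 1363 and 1109 and ABCC5 at 946 and 491. ABCB1, the P-glycoprotein pump, was not detected at 126 and 121, and ABCG2 was detected on control 1 alone, at 274 and 138.

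Metabolic enzymes were detected for 84 of 169, and the classes differed. Glycolysis stood at 18 of 23, with LDHA, which makes lactate, at 55255 and 47822, ENO1 at 41367 and 41846 and GAPDH at 34482 and 46498. The testis, liver and muscle forms PGK2, PKLR and PGAM2 were not detected. Other tissue forms were, with ENO2 at 1551 and 2155, ENO3 at 724 and 584 and ALDOC at 539 and 510. Of 19 aldehyde dehydrogenases 14 were detected, with ALDH9A1 at 14383 and 13977, ALDH7A1 at 4619 and 3107 and ALDH3A2 at 2821 and 1737. ALDH1A1, a stem cell marker in breast tumours, was not detected at 141 and 118, while ALDH1A3 read 701 and 389. Cytochromes P450 stood at 11 of 46: CYP1B1, which hydroxylates oestrogens, led at 3300.4 and 2481, ahead of the sterol demethylase CYP51A1 at 2781 and 1572 and CYP20A1 at 2009 and 1284. The aromatase CYP19A1 was not detected at 144 and 133, and neither were CYP1A1 and the liver forms CYP3A4, CYP2C8 and CYP7A1.

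Redox and conjugating enzymes were detected for 19 of 37. TXNRD1 read 20877 and 12005, NQO1 14931 and 7381, GSTO1 12615 and 17409.7 and GSTP1 5258 and 9375. The glucuronosyltransferases UGT1A1 and UGT2B7, of liver and gut, were not detected. Among enzymes of eicosanoid, serine and polyamine metabolism 18 of 30 were detected. SHMT2 read 13291 and 11649, ASNS 12817 and 9832 and PTGES3 12425 and 6877. PHGDH, the first enzyme of serine synthesis, was present at 5338 and 4792, and PTGS2, the inducible cyclooxygenase, at 1155 and 474, while PTGS1 was not detected. Carbonic anhydrases were detected for 4 of 14, with CA13 at 1428 and 607, CA2 at 766 and 582 and CA12 at 466 and 411.

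Cell cycle regulators were detected for 16 of 21. CCND1, the cyclin of the G1 phase, read 20838 and 17708, CCND3 12728 and 10868 and MYC 9812 and 7745 by both probes. CDKN2A at 158 and 129.5 and CDKN2B at 177 and 145, neighbouring inhibitors of cyclin D kinases, were detected on neither array. RB1, the target of these kinases, read 1722 and 370.3, and is named for this gap after its values were seen.

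Markers of other cell types were detected for 10 of 46, and 4 of those 10 lay above the olfactory receptor range. The lysosomal CD68, at 4477 and 3695, was the brightest, LYZ read 294 and 382 and CD14 243 and 255. Besides CD68 and LYZ, the genes past that range were MITF, given above, and the liver product ALB at 243 and 296 by 1 of 2 probes. PTPRC, carried by all leukocytes, was not detected at 158 and 142, nor were CD3E, VWF, CDH5, COL1A1, LUM, MLANA at 154 and 154, TYR and APOA1. PECAM1 read 211 and 169, ACTA2 241 and 211 and DCN 195 and 176, all within the range. The part of such cells in the signals was not tested.

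Near the threshold, the call turned on small differences in signal. FBN2, at 183 and 164, was just inside with a larger detection p of 0.0494, and ALOX15B and ITGA11 followed at 0.0481 and 0.0468. LGALS7, PAX8 and TNFRSF11B lay just outside, each with a larger p of 0.0506.

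The distance between the control arrays was not spread evenly over the families. Beside TGF-beta receptors, cadherins and desmosomes were higher on control 1, with a median log2 difference of 0.53 and 9 of 11 detected members above 0. Antigen presentation genes were higher on control 2, with a median of -0.67 and 2 of 12 members above 0, as were cathepsins with -0.63 and 3 of 10 and protease inhibitors with -0.41 and 5 of 19. S100 genes were higher on control 2 for all 8 detected members, with a median of -1.19, while annexins had a median of 0.25 with 7 of 9 above 0. Over all 10720 detected genes the median was -0.02, and 5235 lay above 0. On the unscaled signals all genes shifted by 0.32, and medians were -0.18 for antigen presentation and -0.10 for cathepsins, 0.68 for cadherins and desmosomes and 1.05 for TGF-beta receptors. ADAM9 had the widest gap of any listed gene, 3.19 on the log2 scale after neqc, followed by EHF at 2.40 and TNFSF18 at 2.35. S100A4 had the widest gap toward control 2, at -1.88. These genes were named after their values were seen. Longer genes were relatively brighter on control 1: over 8684 detected genes the difference and the length of the gene in RefSeq had a Spearman correlation of 0.42, a description across genes that share both arrays. Split into 4 groups of 2171 genes by length, the median difference was -0.51, -0.13, 0.21 and 0.35 from the shortest group, of median 6.2 kb, to the longest, of median 130.5 kb. The correlation with promoter GC content was -0.01 and with mean signal 0.13. What set the arrays apart was not tested.

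**Figure D5:**
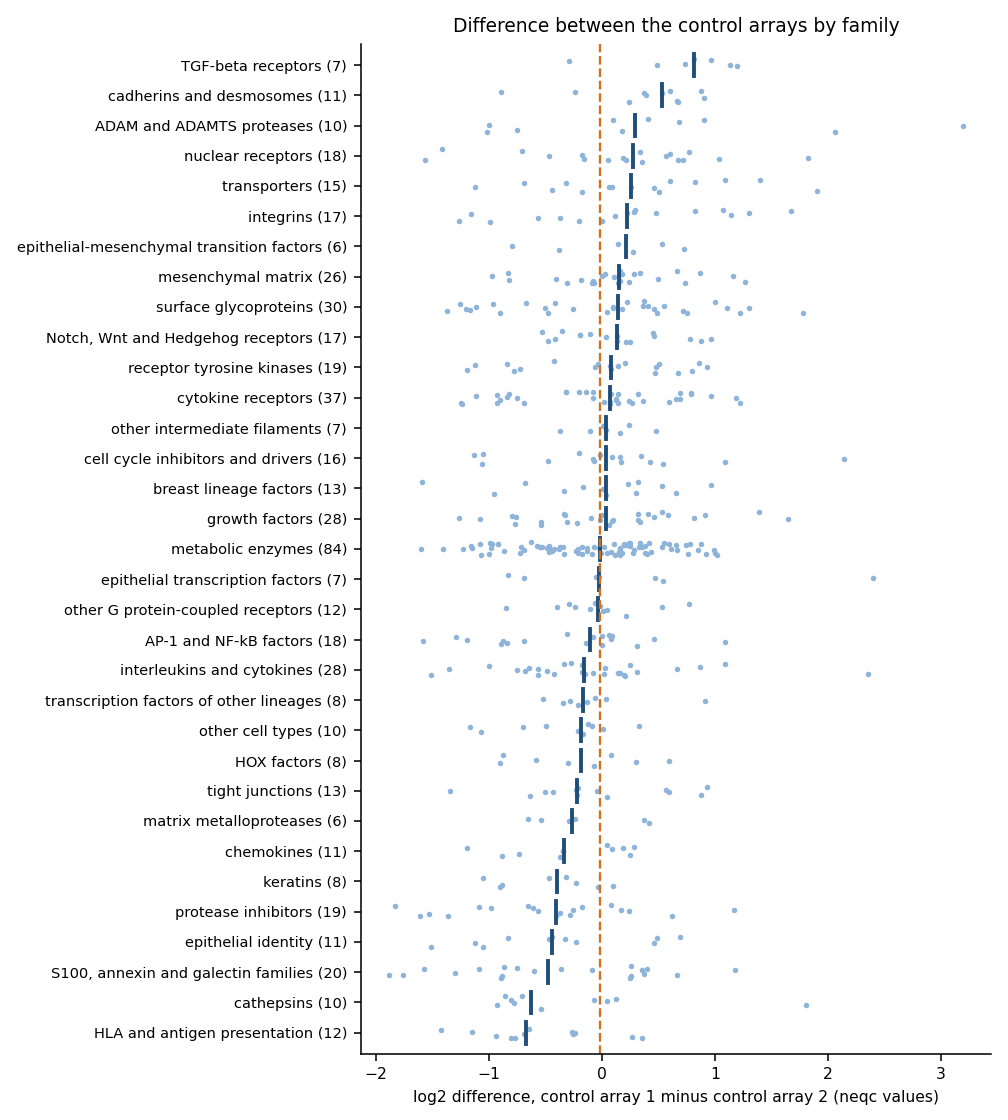
Log2 difference of control array 1 minus control array 2 after neqc for each detected member (points) of the families with at least 5 detected members, with the median of each family as a bar and the median of all detected genes, -0.02, as a dashed line. TGF-beta receptors lie highest at a median of 0.81 and antigen presentation genes lowest at -0.67.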

How the data were processed

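Gene expression was measured on 6 Illumina bead arrays, and the 2 control arrays are described here. Per the file headers, the deposited non-normalized table holds per array a mean bead intensity for each probe, not scaled between arrays, and a detection p-value that moves in steps of 1 in 770. GenomeStudio is named in the submitters' processing notes, and its version is not given in the sources used here. The authors' processed table of intensity values, which reach below 0 and share a distribution across arrays by a method not stated, served as an alternative. Probes were named through the platform annotation: 30112 had 1 gene symbol, 8 several and 17199 none, and 30073 were updated through Entrez identifiers.

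Detection, ranks and family counts were computed with pandas 2.3.3 under Python 3.11.15, and neqc (offset 16) came from limma 3.58.1. The call was checked on simulated data. For genes with several probes the brightest probe detected on both arrays is shown. Named genes are the 3 markers, the 20 brightest, genes set as defining for a family and the 3 brightest detected members of each role group. Members and lists were chosen with earlier results of these data known. No test between groups was made, so precision is set by there being 2 arrays. Listed genes without a probe here were not analysed.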

Additional observations from a re-analysis of the deposited data

How the results depend on the processing

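All counts over the whole array stayed within 1.5 times the values given above. Genes detected numbered 9811 at a detection p-value of 0.01, 12242 on at least 1 control array, 10065 on all 6 arrays, 10713 by the brightest probe alone, 8536 with all probes required, and 11297 to 11691 with either control array left out. With a mean signal above the brightest detected olfactory receptor also required, a setting chosen after seeing the data, 9038 genes and 435 of the listed genes remained. Family counts moved by more than 1.5 times for 9 of 36 families under that setting, among them matrix metalloproteases from 6 to 1, chemokines from 11 to 5 and growth factors from 28 to 15, and for 8 families with all probes required. Left to control 1 alone, chemokine receptors rose to 5 and markers of other cell types to 17. Of 98 defining genes, ZEB1, FN1, CD274 and ABCG2 were detected on control 1 alone, and 5 lost detection at 0.01 (CXCR4, CDH2, CLDN3, CLDN4 and PECAM1). Of the 100 brightest probes 97 were shared after neqc, 98 in the processed table, and 81 to 87 on either array alone. Probes at least 2-fold apart between the control arrays numbered 2841 unscaled and 4091 in the processed table. No paired analysis was possible because only the control arrays enter.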

Other observations

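Probes of the same gene disagreed for 48 genes in which 1 probe exceeded a mean signal of 5000 on the control arrays while every other probe of the gene was undetected. ITIH5, an inhibitor chain of plasma, read 61708 and 56473 on such a probe, with 4 others at a mean of at most 151. CCR6 read 54049 and 47385 with 2 others at a mean of at most 156, and FARSB, a phenylalanine tRNA synthetase chain, read 49502 and 39011 with 1 other at 146. AKR1D1, a bile acid enzyme of liver, read 28599 and 19937 with 1 other at 139. In the families described, the genes concerned were CCR6, IL10, FOXA2, PSAT1 and ANXA7, and their presence in these cells rests on a lone probe.

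LAIR1, a receptor of leukocytes, was the brightest named gene at 65194 and 65380 by 1 of its 2 probes, while PTPRC, the general leukocyte marker, was undetected. Detection on the control arrays carried over to the other arrays for most probes: 16563 of the 18309 probes detected on both control arrays were detected on all 4 others (90.5%), and 54 probes undetected on both control arrays were detected on all 4 others.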
